A study of Mus musculus with 6 samples.

Results

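Messenger RNA of 8 genes that mark scar-associated, or lipid-associated, macrophages was followed across 6 libraries of cultured mouse liver cells. The genes were Spp1, Trem2, Gpnmb, Cd9, Fabp5, Lgals3, Apoe and Lpl, taken by symbol from a table of 55401 genes. They had been chosen by values measured in these same libraries, so their difference between genotypes is given as a description with no test. All 8 were among the 12766 genes that reached 1 FPKM (fragments scaled to gene length and to library size) in at least 3 of the 6 libraries. By their labels the cells were hepatic stellate cells from C57BL/6J mice, kept for 7 days in medium with FBS (fetal bovine serum) to become fully activated. Macrophage markers were abundant in all 6 libraries, and stellate cell markers were low in S100a16+/- replicate 3, as given below. Of the 6 libraries, 3 came from S100a16+/- mice, which carry 1 disrupted copy of the gene for a small calcium-binding protein, and 3 from wild-type (WT) mice. The labels name no promoter or cell type to which the loss of that copy is restricted. Nothing in the labels ties each library to an animal of its own, so the p-values cover the spread among these 6 samples. That spread may be technical, apart from S100a16+/- replicate 3, which differed in sex from the rest, as given below.

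Scar-associated macrophages gather in fibrotic liver, and closely related cells appear around fat-laden adipocytes and in atherosclerotic plaques. They take up lipid and dying cells through receptors such as TREM2, break the cargo down in lysosomes, and secrete osteopontin, the product of Spp1, and galectin-3, the product of Lgals3, both of which can act on neighbouring mesenchymal cells. Apoe and Lpl belong to lipoprotein handling, Fabp5 carries fatty acids inside the cell, Cd9 encodes a tetraspanin of the plasma membrane, and Gpnmb encodes a transmembrane glycoprotein of lysosomes that is also shed. None of the 8 is restricted to macrophages: activated stellate cells, endothelial cells and hepatocytes can express several of them.

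The promoters of Spp1, Trem2 and Gpnmb are shown because these 3 genes give the set its identity. Each sequence is the RefSeq stretch from 250 bases before to 50 bases after the annotated start on build GRCm38.p6, read 5′ to 3′ on the strand of the gene. Capitals mark the matches to motifs of macrophage transcription factors. In Spp1 this is the PU.1 core AGGAAGT. In Trem2 and Gpnmb it is TGANTCA, a loose form of the AP-1 site in which N is any base. The stretch reads TGAATCA in Trem2 and TGACTCA in Gpnmb.
Spp1, chr5:104434861-104435160, plus strand: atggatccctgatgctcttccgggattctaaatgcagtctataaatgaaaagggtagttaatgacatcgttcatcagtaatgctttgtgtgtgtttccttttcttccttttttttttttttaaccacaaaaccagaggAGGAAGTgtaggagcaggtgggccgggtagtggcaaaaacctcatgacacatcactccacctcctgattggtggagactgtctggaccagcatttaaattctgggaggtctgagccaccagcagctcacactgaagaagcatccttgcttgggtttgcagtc
Trem2, chr17:48346151-48346450, plus strand: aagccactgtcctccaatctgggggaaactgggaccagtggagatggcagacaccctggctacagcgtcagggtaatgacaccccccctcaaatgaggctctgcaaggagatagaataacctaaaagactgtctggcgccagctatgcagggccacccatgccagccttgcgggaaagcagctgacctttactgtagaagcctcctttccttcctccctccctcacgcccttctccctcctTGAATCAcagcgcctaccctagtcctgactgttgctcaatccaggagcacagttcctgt
Gpnmb, chr6:49036268-49036567, plus strand: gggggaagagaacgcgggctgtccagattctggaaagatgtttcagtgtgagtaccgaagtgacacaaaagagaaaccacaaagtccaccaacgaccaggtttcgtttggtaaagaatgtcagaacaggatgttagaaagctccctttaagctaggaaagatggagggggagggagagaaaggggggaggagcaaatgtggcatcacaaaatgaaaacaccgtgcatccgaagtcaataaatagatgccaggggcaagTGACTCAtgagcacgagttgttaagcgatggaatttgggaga
Promoters were found for 6 of the 8 genes, the exceptions being Fabp5 and Lpl. Both strands were searched for those motifs and for the E-boxes of the MiT family of lysosomal regulators, spelled CACGTG and, in a second form, CATGTG. The PU.1 match in Spp1 began 112 bases before the start (position -112). The TGANTCA match began at position -9 in Trem2 and at position 9 in Gpnmb. Cd9 held a CATGTG at position -38. No match to the 4 motifs was found in the windows of Lgals3 and Apoe, and the RefSeq start used for Lgals3 lies 6109 bases from the gene start in the deposited table. Of 32851 promoters of the same length, 9.35% held the PU.1 core, 7.81% the loose form TGANTCA, 7.15% CACGTG and 14.2% CATGTG. A match is a string of letters, and binding was not measured.

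Of the 6 libraries, the one labelled S100a16+/- replicate 3 was unlike the rest, so levels are given by library, and the changes of the 8 genes and the counts of calls with and without it. S100a16 itself had 18.0, 17.7 and 30.0 FPKM in S100a16+/- replicates 1 to 3, against 57.7, 58.8 and 56.8 FPKM in WT replicates 1 to 3. All 3 S100a16+/- libraries were below WT, replicate 3 least so, and the log2 change was -1.35 ± 0.21 (SE, edgeR adjusted p = 0.0313). Over all tested genes the root mean square log2 difference was 0.261 between S100a16+/- replicates 1 and 2, and 0.598 and 0.603 between each of these and replicate 3. Between WT libraries it was 0.271 to 0.304. Replicate 3 also carried the female transcript Xist at 32.2 FPKM, against at most 0.0323 FPKM in the other libraries, and Ddx3y, on the Y chromosome, at 0.0102 FPKM, against 12.1 to 15.8 FPKM. By these genes replicate 3 was female and the other libraries male, so sex differed within S100a16+/-. The part of sex in the results was not tested. The summed stellate cell and myofibroblast markers were 862, 827 and 107 FPKM in S100a16+/- replicates 1 to 3, against 737, 817 and 834 FPKM in WT. Of the stellate cell genes, Lrat and Reln stayed under 1 FPKM in every library, while the activation marker Acta2 had 489, 470 and 48.0 FPKM in S100a16+/- and 388, 437 and 425 FPKM in WT. Libraries held 61979103 to 76291481 counts. With all 6 libraries, edgeR called 364 of the tested genes higher in S100a16+/- (2.85%) and 206 lower (1.61%) at an adjusted p under 0.05. Scaling by library totals alone gave 282 higher and 252 lower. Without S100a16+/- replicate 3 there were 2022 higher (15.8%) and 2093 lower (16.4%).

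Of the secreted factors, Spp1 differed most. Spp1 (ENSMUSG00000029304, chromosome 5, 104435118 to 104441050, plus strand) had 226, 215 and 77.2 FPKM in S100a16+/- replicates 1 to 3, against 35.7, 35.8 and 30.2 FPKM in WT. Every S100a16+/- library was above every WT library, with replicate 3 between the 2 sets of values. Relative to the WT mean the folds were 6.66, 6.35 and 2.28 in S100a16+/- replicates 1 to 3. The log2 change was 2.41 ± 0.43 (SE), and 2.76 ± 0.09 without replicate 3. On the log2 scale, replicate 3 held 44.1% of the mean difference of replicates 1 and 2. Behind these levels stood 29257, 27571 and 8725 counts in S100a16+/- and 4312, 4999 and 4019 counts in WT. The predicted gene Gm42793 lies within Spp1 and reached at most 35 counts in any library.

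Lgals3, for the sugar-binding galectin-3 (ENSMUSG00000050335, chromosome 14, 47367751 to 47386160, plus strand), had 663, 694 and 262 FPKM in S100a16+/- and 183, 197 and 183 FPKM in WT. The groups did not overlap, but replicate 3 stood much nearer to WT than to its own group. On the log2 scale Lgals3 was higher by 1.58 ± 0.38 (SE), and 1.92 ± 0.05 without replicate 3.

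The receptor gene Trem2 (ENSMUSG00000023992, chromosome 17, 48346401 to 48354147, plus strand) had 47.8, 45.6 and 19.6 FPKM in S100a16+/- replicates 1 to 3, against 17.0, 17.5 and 15.998 FPKM in WT. Its folds over the WT mean were 2.84 and 2.71 in replicates 1 and 2, and 1.17 in replicate 3. All S100a16+/- values lay above WT, with replicate 3 just above it. The log2 change was 1.22 ± 0.34 (SE), and 1.54 ± 0.05 without replicate 3. Gpnmb (ENSMUSG00000029816, chromosome 6, 49036546 to 49070929, plus strand) had 741, 760 and 205 FPKM in S100a16+/- and 176, 181 and 169 FPKM in WT. Like Trem2, it was 1.17-fold above the WT mean in replicate 3, and 4.23-fold and 4.34-fold above it in replicates 1 and 2. Its log2 change was 1.76 ± 0.50 (SE), and 2.16 ± 0.04 without replicate 3. Cd9, the tetraspanin (ENSMUSG00000030342, chromosome 6, 125460266 to 125494791, minus strand), had 55.8, 56.6 and 31.3 FPKM in S100a16+/-, against 31.0, 31.4 and 30.5 FPKM in WT. Here replicate 3 fell within the WT range and the groups overlapped. Its log2 change was 0.68 ± 0.24 (SE), and 0.92 ± 0.04 without replicate 3. The genes Gm28809 and Gm26728 run antisense to Cd9 and had at most 63 counts each. No source used here says whether counting used the strand.

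The 3 lipid-handling genes went 3 ways. Lpl, for the lipase that frees fatty acids from lipoproteins (ENSMUSG00000015568, chromosome 8, 68880491 to 68906934, plus strand), had 197, 210 and 39.4 FPKM in S100a16+/-, against 39.5, 44.2 and 37.8 FPKM in WT. It was about as high in replicate 3 as in WT, 0.973 of the WT mean, and 4.87-fold and 5.18-fold the WT mean in replicates 1 and 2. For Lpl the log2 change was 1.94 ± 0.61 (SE), and 2.39 ± 0.08 without replicate 3.

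Fabp5 (ENSMUSG00000027533, chromosome 3, 10012548 to 10016607, plus strand) had 84.8, 90.2 and 89.4 FPKM in S100a16+/- and 37.8, 38.4 and 40.6 FPKM in WT. In this gene alone among the 8, replicate 3 was level with replicates 1 and 2. The means were 88.1 ± 2.90 FPKM in S100a16+/- and 38.9 ± 1.45 FPKM in WT (SD, n = 3 each). The log2 change was 1.23 ± 0.06 (SE) with replicate 3, and 1.23 ± 0.05 without it. Fabp5 has processed copies in the mouse genome that could share its reads. The copy Fabp5l2 had at most 4 counts in any library.

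Apoe (ENSMUSG00000002985, chromosome 7, 19696109 to 19699188, minus strand) had the opposite pattern, with 613, 492 and 1278 FPKM in S100a16+/-, against 1340, 1377 and 713 FPKM in WT. Replicates 1 and 2 were below every WT library, replicate 3 was within the WT range, and WT replicate 3 was the lowest WT library by a wide margin. The log2 change was -0.48 ± 0.43 (SE), close to the size of its error. It was -0.99 ± 0.31 without S100a16+/- replicate 3 and -0.73 without WT replicate 3. Without S100a16+/- replicate 1 or 2 it was -0.33 or -0.24. Stellate cells, macrophages and hepatocytes can all express Apoe. The hepatocyte markers, led by Alb, summed to 7.75, 8.35 and 426 FPKM in S100a16+/- and to 92.5, 81.8 and 61.0 FPKM in WT, and their part in the Apoe levels was not tested.

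**Figure D1:**
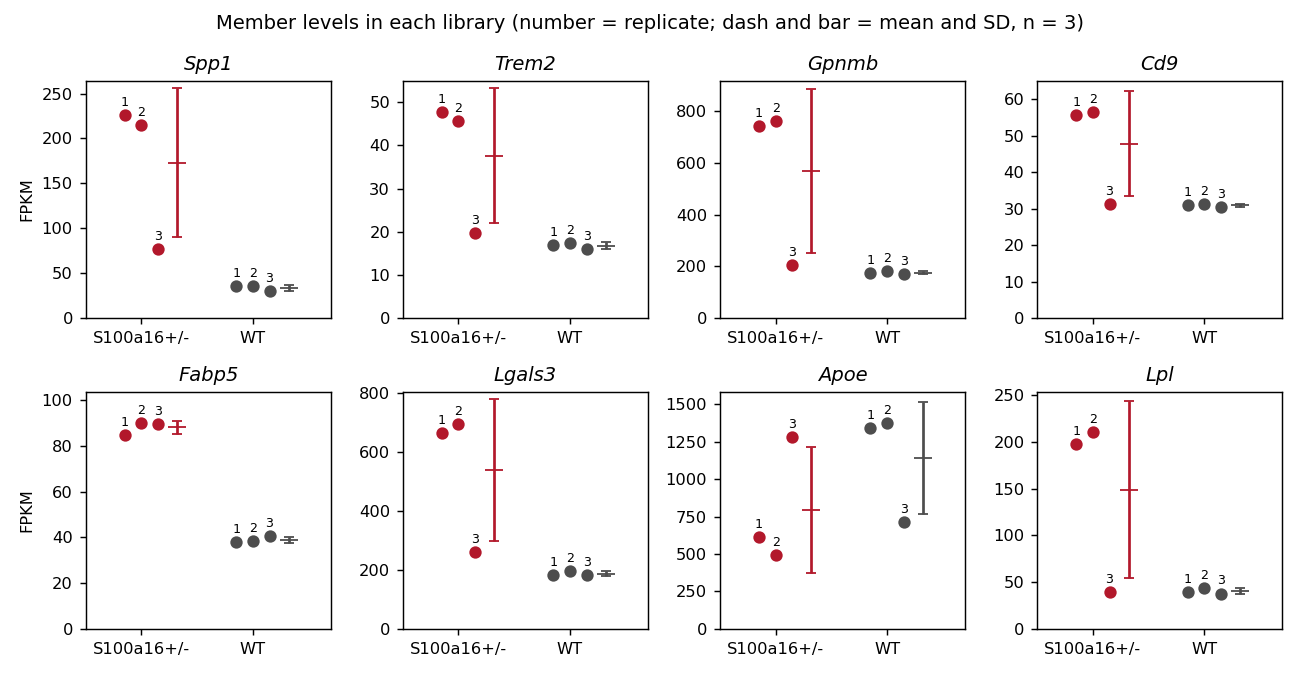
FPKM of each of the 8 genes in every library, with S100a16+/- in red left of WT in grey; numbers are replicates, and the dash and bar to the right of each group are the mean and SD (n = 3). S100a16+/- replicates 1 and 2 sit together above WT for 7 genes and below it for Apoe, while replicate 3 is level with them for Fabp5 alone and nearer to WT for the rest.

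By mean level, Apoe was first in both genotypes, at 795 ± 423 FPKM in S100a16+/- and 1143 ± 373 FPKM in WT (SD, n = 3 each). Gpnmb and Lgals3 followed. Gpnmb had 569 ± 315 FPKM in S100a16+/- and 175 ± 5.71 FPKM in WT, and Lgals3 had 540 ± 241 FPKM in S100a16+/- and 187 ± 8.19 FPKM in WT. These 2 did not differ beyond their spread in S100a16+/-, while in WT every Lgals3 value was slightly above every Gpnmb value. Trem2 was the lowest of the 8, at 37.7 ± 15.7 FPKM in S100a16+/- and 16.8 ± 0.756 FPKM in WT. Spp1 changed place in this order. In S100a16+/- it averaged 173 ± 82.9 FPKM and came above Lpl, at 149 ± 95.0 FPKM, by less than the spread of either, and in WT its 33.9 ± 3.20 FPKM lay between Fabp5 and Cd9. Together the 8 genes took 1.16%, 1.17% and 0.617% of all counts in S100a16+/- replicates 1 to 3, against 0.567%, 0.588% and 0.412% in WT.

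In 5 of the 8 genes, Spp1, Trem2, Gpnmb, Fabp5 and Lgals3, all S100a16+/- libraries were above all WT libraries. Over all tested genes 12.5% were so placed, and 18.9% were below WT in all S100a16+/- libraries. By the edgeR threshold 2 of the 8 were higher with all 6 libraries, where 2.85% of tested genes were, and 7 of 8 without replicate 3, where 15.8% were. The choice of the genes used this contrast, so nothing is read from these counts. The median log2 change of the 8 was 1.41, and 1.73 without replicate 3, beside a median of 0.00 over all tested genes in both.

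The libraries held many macrophage transcripts, and the markers did not move as one. The 13 macrophage markers, all detected and led by Lyz2 and C1qa, summed to 13536, 14525 and 10181 FPKM in S100a16+/-, against 8991, 9224 and 8713 FPKM in WT. By edgeR with all libraries 2 of the 13 were called higher and 0 lower, where 2.85% and 1.61% of all tested genes were. The excess of the sum lay in Lyz2, the lysozyme gene, which had 9230, 10057 and 5460 FPKM in S100a16+/-, against 4420, 4595 and 4377 FPKM in WT. The other 12 markers summed to 4306, 4468 and 4720 FPKM in S100a16+/- and to 4570, 4630 and 4336 FPKM in WT, and these groups overlapped. In S100a16+/- replicates 1 and 2, 6 of the 13 markers, Cd68 and Cd14 among them, were above every WT library and 6 below it. The share of all tested genes so placed in these libraries was not worked out, so nothing is read from these counts. Over all 3 S100a16+/- libraries 4 were above every WT library and 1, Ptprc, below, where 12.5% and 18.9% of all tested genes were. Ptprc was below by little, with at most 17.40 FPKM in S100a16+/- and at least 17.41 FPKM in WT. The complement gene C1qa was one of the 6 below WT in replicates 1 and 2, with 836, 881 and 1152 FPKM in S100a16+/- and 1243, 1239 and 1150 FPKM in WT. The 7 markers of Kupffer cells, which are liver-resident macrophages, were led by Marco and Cd5l and summed to 4257, 4529 and 3602 FPKM in S100a16+/-, against 2214, 2326 and 2236 FPKM in WT. All 3 S100a16+/- libraries were above WT for the Kupffer list, and replicate 3 was the nearest to WT. This excess lay in Marco, with 2829, 3010 and 1930 FPKM in S100a16+/- and 1162, 1211 and 1218 FPKM in WT, and in Cd5l. Cd5l had 949, 1004 and 1225 FPKM in S100a16+/- and 586, 606 and 559 FPKM in WT. The sum of the remaining Kupffer markers overlapped between the groups. Of the 7 Kupffer markers 2 were called higher and 0 lower, beside the same 2.85% and 1.61% of all tested genes. Endothelial markers, led by Cdh5, were low in S100a16+/- replicates 1 and 2 and high in replicate 3, at 475, 454 and 1503 FPKM, against 1271, 1138 and 1183 FPKM in WT. Mesothelial markers had 70.0, 70.6 and 8.89 FPKM in S100a16+/- and 60.8, 84.5 and 90.2 FPKM in WT. Of the neutrophil markers Ly6g, Retnlg and S100a9 had no count in any library, while S100a8 had 12.4, 15.0 and 6.58 FPKM in S100a16+/- and 0.975, 2.01 and 0.572 FPKM in WT. The lists for monocytes, cholangiocytes, lymphocytes, dendritic cells, adipocytes and osteoclasts each summed to at most 14.0 FPKM in any library, and Adipoq, Plin1, Lep and Cd209a had no count. In bulk RNA, more cells of a type and more RNA per cell cannot be told apart.

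**Figure D2:**
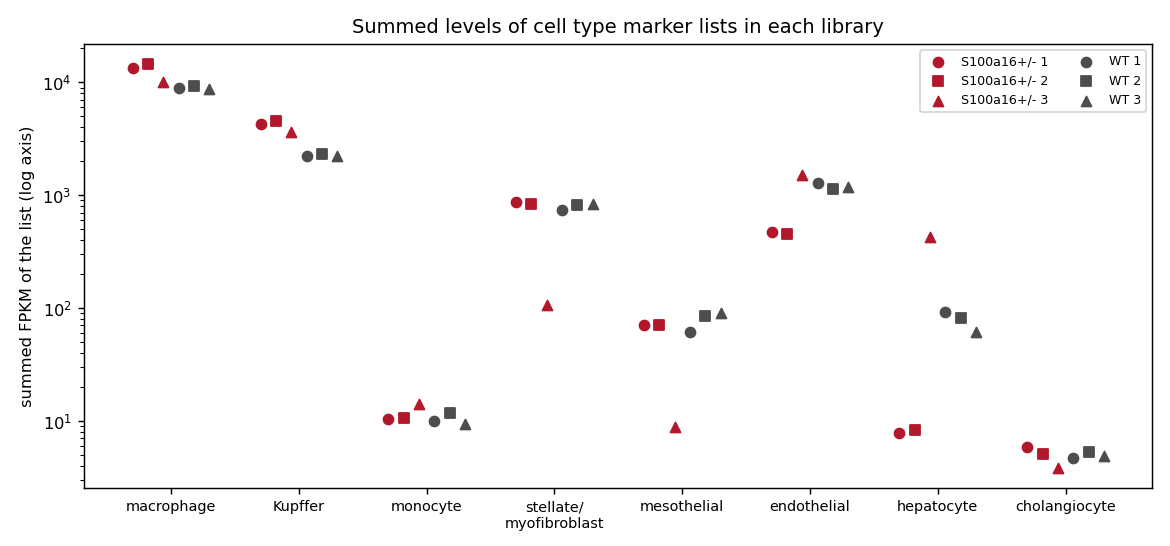
Summed FPKM (log axis) of 8 cell type marker lists in each library, S100a16+/- in red left of WT in grey, with a symbol for each replicate number. The Kupffer list, whose excess lies in Marco and Cd5l, and the macrophage list, whose excess lies in Lyz2, are highest in S100a16+/- replicates 1 and 2. Replicate 3 is far below the other libraries for the stellate and mesothelial lists and above them for hepatocyte markers.

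Each gene was therefore also divided by the summed counts of the 13 macrophage markers in the same library, a sum in which Lyz2 weighs most. On this scale, as the log2 ratio to the WT mean, Spp1 remained higher, at 2.20, 2.04 and 1.04 in S100a16+/- replicates 1 to 3. Lpl was at 1.75, 1.74 and -0.19, Gpnmb at 1.54, 1.48 and 0.07, and Lgals3 at 1.28, 1.26 and 0.33. Trem2 was at 0.97, 0.81 and 0.07, so that in replicate 3 its small excess over WT in FPKM was within 0.1 of the WT mean per macrophage marker count. Cd9 was at 0.31, 0.23 and -0.14. Fabp5 changed its order, at 0.58, 0.58 and 1.05, with replicate 3 now the highest. Apoe was at -1.38, -1.79 and 0.07. The median over the 8 of the S100a16+/- minus WT difference was 0.85. Against the Kupffer markers it was 0.48, and in replicate 3 Spp1 was then at 0.54, with Trem2 at -0.43, Gpnmb at -0.43 and Lgals3 at -0.17 below the WT mean. On that scale the mean difference of Cd9 was -0.23. The median difference was 1.20 against the macrophage list without Lyz2, the most abundant marker, and 1.25 against Csf1r alone. The size of the excess over macrophage content therefore depended on the markers used to measure that content.

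**Figure D3:**
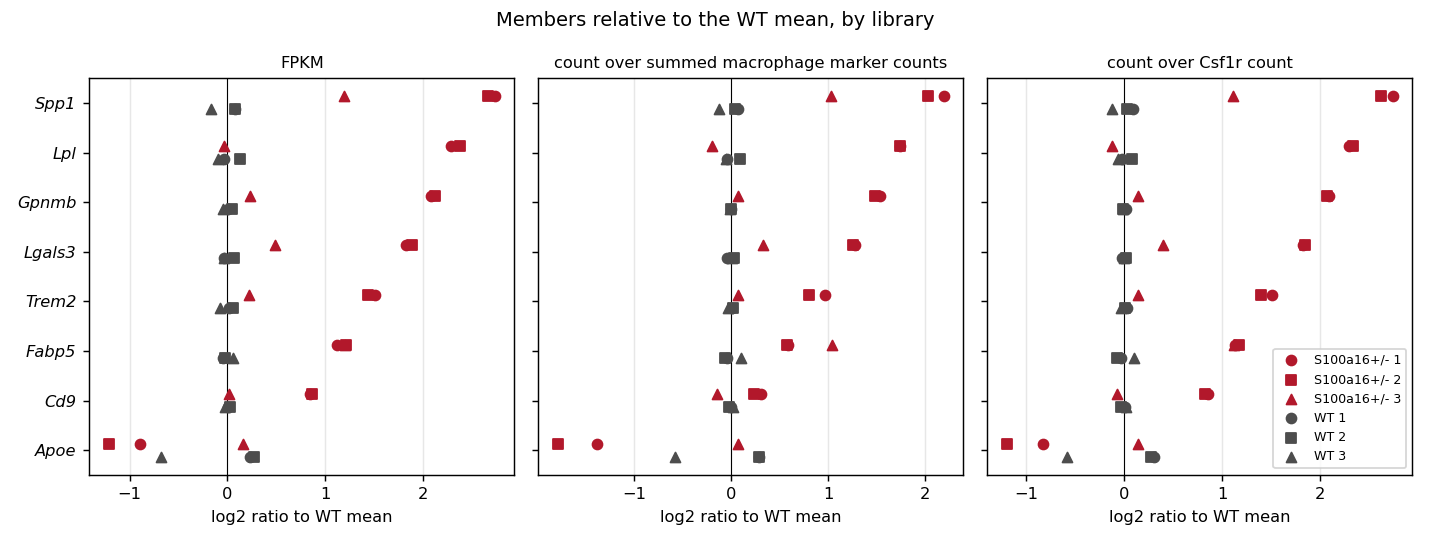
Log2 ratio of each gene to its WT mean in every library, from FPKM (left), from counts over the summed macrophage marker counts (middle) and from counts over the Csf1r count (right); S100a16+/- is red, WT grey, and symbols give the replicate number. Spp1 stays at or above 1.04 in all 3 S100a16+/- libraries on these 3 scales (0.54 in replicate 3 against Kupffer markers, not drawn), while Cd9 and Lpl in replicate 3 lie near or below 0.

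The genes whose profiles were most like those of Spp1 and Trem2 were found by the root mean square difference of log2(FPKM + 1), centred on the mean of each gene, over the 6 libraries and 10888 candidate genes. Nearest to Spp1 were Bcl2a1d, a survival factor of myeloid cells, at 0.09, and the chemokine genes Ccl9 and Ccl5 at 0.16 and 0.21. Adam8, a metalloprotease, and Clec4e, a receptor for mycobacterial glycolipid, followed at 0.27 and 0.29, where the median over all candidates was 1.23. Ccl9, for example, had 103, 101 and 40.8 FPKM in S100a16+/- and 19.0, 21.4 and 18.3 FPKM in WT, the same order as Spp1, with replicate 3 in between. Bcl2a1d has near-identical copies, so its counts are uncertain.

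Trem2 had closer neighbours. They were Anxa4, an annexin, at 0.02, the endocytic gene Ehd3 at 0.06, the proton channel gene Hvcn1 at 0.06, the actin-capping gene Capg at 0.07, and Itgb2, the shared chain of leukocyte integrins, at 0.08, beside a median of 0.68. Itgb2 had 382, 391 and 142 FPKM in S100a16+/- and 138, 143 and 132 FPKM in WT, with replicate 3 close to WT as for Trem2. Among the other 7 genes of the set, Gpnmb was nearest to Spp1, at rank 16, and Lgals3 nearest to Trem2, at rank 52. Apoe was among the least alike to both, at ranks 10611 and 10630. All points share these 6 libraries, so the likeness is a description.

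**Figure D4:**
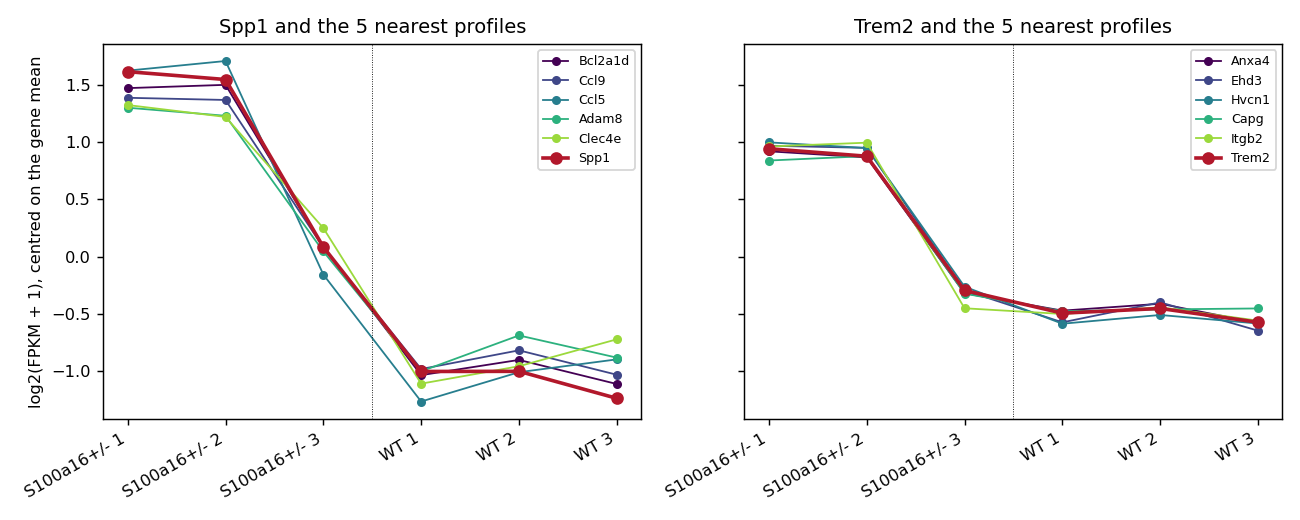
Centred log2(FPKM + 1) of Spp1 (left) and Trem2 (right), in red, with the 5 nearest genes by root mean square difference, in each library; S100a16+/- libraries are left of the dotted line and WT libraries right of it. Spp1 and its neighbours hold an intermediate level in S100a16+/- replicate 3, whereas Trem2 and its neighbours are close to WT there.

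Partner genes were collected in 6 lists, and 98 of the 112 genes listed were tested. By edgeR 15 of the 98 were higher in S100a16+/- and 3 lower, where 2.85% and 1.61% of all tested genes were. The lists were chosen with earlier results of these data known, so the counts for all lists are a description and nothing is read from them. Without S100a16+/- replicate 3, 55 were higher and 17 lower, and all 18 of the first calls were among them. In that fit 15.8% of all tested genes were higher and 16.4% lower, which also stands behind the counts without replicate 3 for each list below. Of the partners described below as not called, Tgm2, Lgals1, Lgals9, Ctsk and Axl were not called without replicate 3 either. The others passed there, with edgeR adjusted p-values up to 0.0107, that of Angptl4. Without S100a16+/- replicate 1 or 2 a single gene was called each time, Ms4a6d or Sorl1, and none of the 18 held without WT replicate 1, 2 or 3. At an unadjusted edgeR p under 0.05, 27 to 30 of the 98 were higher and 5 to 8 lower in those 5 fits, where 8.62% to 9.61% of all tested genes were higher and 6.20% to 7.20% lower. With all 6 libraries 12.4% of tested genes were higher and 9.54% lower at an unadjusted p under 0.05, and DESeq2 called 8.81% higher and 5.98% lower. These shares are the background of the counts given in parentheses for each list. The median log2 change over the 98 was 0.27, and 0.40 without replicate 3, beside 0.00 over all tested genes. The Kupffer markers Marco and Cd5l, and Lyz2, were higher in S100a16+/- and C1qa lower in its replicates 1 and 2, as given above. The part of these markers in the partner results was not tested.

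Among the partners of osteopontin, 13 of 19 genes were tested, and edgeR called 3 higher and 0 lower (4 and 0 at an unadjusted p under 0.05, and 4 and 0 by DESeq2). Fam20c, the secretory kinase that phosphorylates osteopontin, had 67.1, 68.9 and 36.1 FPKM in S100a16+/-, against 15.8, 17.8 and 16.5 FPKM in WT. It rose by 1.84 ± 0.27 (log2, SE) with an edgeR adjusted p of 0.0271. Mmp9, a gelatinase that can cleave osteopontin, had 238, 222 and 127 FPKM in S100a16+/- and 76.0, 74.3 and 74.5 FPKM in WT, a rise of 1.44 ± 0.25 (edgeR adjusted p = 0.0400). Both shared with Spp1 a level in replicate 3 between WT and replicates 1 and 2. The receptor chain Itga4 had 4.46, 4.62 and 4.57 FPKM in S100a16+/- and 3.17, 3.27 and 2.90 FPKM in WT, and rose by 0.60 ± 0.07 (edgeR adjusted p = 0.0183), evenly over the libraries. The receptor chain Itgb1, with 244, 243 and 342 FPKM in S100a16+/- and 325, 313 and 319 FPKM in WT, did not pass the test (-0.16, edgeR adjusted p = 0.586), but did without replicate 3 (-0.33, edgeR adjusted p = 0.00184). Nor did Tgm2, which crosslinks osteopontin (log2 change 0.29, edgeR adjusted p = 0.545). Cd44, the other main receptor, named after its values were seen, had 45.1, 44.5 and 19.7 FPKM in S100a16+/-, against 29.9, 34.3 and 30.6 FPKM in WT. It was higher than WT in replicates 1 and 2, lower in replicate 3, and not called (edgeR adjusted p = 0.690). The related bone matrix genes Ibsp, Dmp1, Mepe and Dspp were below the FPKM minimum. The list median was 0.16, and without replicate 3 the counts were 7 higher and 3 lower, with a median of 0.20.

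Of the TREM2 signalling genes 16 of 18 were tested, and edgeR called 4 higher and 0 lower (7 and 1 at an unadjusted p under 0.05, and 5 and 1 by DESeq2). Syk, the kinase that docks on the phosphorylated adaptor, had 46.7, 46.4 and 38.7 FPKM in S100a16+/- and 28.4, 28.9 and 27.5 FPKM in WT, a rise of 0.69 ± 0.10 (edgeR adjusted p = 0.0279). Vav1, an exchange factor downstream of Syk, had 37.9, 36.8 and 38.5 FPKM in S100a16+/- and 29.4, 30.1 and 27.8 FPKM in WT, and rose by 0.43 ± 0.06 (edgeR adjusted p = 0.0228). Unlike Trem2 itself, these 2 kept most of the difference in replicate 3, which a call with all libraries favours. Ms4a6d, of a membrane protein family genetically tied to soluble TREM2 in humans, had 134, 138 and 141 FPKM in S100a16+/- and 95.4, 96.9 and 94.8 FPKM in WT, a rise of 0.58 ± 0.05 (edgeR adjusted p = 0.00958). Trem3, a neighbouring receptor gene of the family, was low, with 3.56, 3.34 and 2.99 FPKM in S100a16+/- and 0.848, 0.819 and 1.36 FPKM in WT (1.76 ± 0.25, edgeR adjusted p = 0.0260). Tyrobp, for the adaptor DAP12 through which TREM2 signals, was far more abundant per length than Trem2, with 868, 916 and 678 FPKM in S100a16+/- and 612, 571 and 547 FPKM in WT. Its groups did not overlap, but it did not pass the test (0.56 ± 0.14, edgeR adjusted p = 0.0852). The phosphatase gene Ptpn6 was not called either (0.48, edgeR adjusted p = 0.182). The list median was 0.29. Without replicate 3 it was 0.41, with 10 higher and 2 lower.

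The macrophage programme list held lysosomal, protease and surface genes reported with Trem2 in lipid-laden macrophages of mice. Of its 24 genes 23 were tested, and edgeR called 5 higher and 0 lower (18 and 0 at an unadjusted p under 0.05, and 17 and 0 by DESeq2). All 5 encode lysosomal enzymes. Ctsd, a protease of lysosomes, had 5261, 5490 and 3901 FPKM in S100a16+/- and 2474, 2558 and 2376 FPKM in WT, a rise of 1.04 ± 0.17 (edgeR adjusted p = 0.0376). Ctsb had 1315, 1331 and 1323 FPKM in S100a16+/- and 925, 950 and 885 FPKM in WT, a rise of 0.58 ± 0.10 (edgeR adjusted p = 0.0402). Lipa, the acid lipase for lipoprotein lipid, rose by 0.79 ± 0.15 (edgeR adjusted p = 0.0472), and Acp5, an acid phosphatase, by 0.41 ± 0.07 (edgeR adjusted p = 0.0402). Ctsz was called as well, at 921, 982 and 702 FPKM in S100a16+/- and 517, 534 and 532 FPKM in WT (edgeR adjusted p = 0.0490). The abundant surface lectin Clec7a had 597, 645 and 271 FPKM in S100a16+/- and 175, 175 and 170 FPKM in WT, with no overlap, and just missed the threshold (1.60 ± 0.34, edgeR adjusted p = 0.0615). Ctss was not called (0.83, edgeR adjusted p = 0.176). Without replicate 3, edgeR called 20 of the 23 higher and 0 lower, 1 being lower at an unadjusted p under 0.05, and the median was 0.91, against 0.77 with all libraries.

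Several genes of that list, named after their values were seen, followed Lpl in that replicate 3 was level with WT. Mmp12, the macrophage elastase, had 464, 534 and 54.8 FPKM in S100a16+/- and 62.7, 62.2 and 59.8 FPKM in WT. Itgax, for CD11c, had 59.2, 60.7 and 6.82 FPKM in S100a16+/- and 8.41, 9.72 and 8.17 FPKM in WT. Atp6v0d2, a proton pump subunit, had 71.9, 74.7 and 11.7 FPKM in S100a16+/- and 13.2, 13.5 and 11.8 FPKM in WT. In all 3 the first 2 S100a16+/- libraries were far above WT and the last was below every WT library, and none was called with all 6 libraries (edgeR adjusted p = 0.137 for Mmp12, 0.160 for Itgax and 0.147 for Atp6v0d2). Ctsk and Axl, also named after their values were seen, were below WT in every S100a16+/- library. Ctsk had 4.08, 5.14 and 2.96 FPKM in S100a16+/- and 5.97, 5.56 and 5.35 FPKM in WT. Neither was called with all 6 libraries (edgeR adjusted p = 0.346 for Ctsk and 0.613 for Axl). Of the 23 tested genes these 2 were so placed and 13 were above WT in every S100a16+/- library, where 18.9% and 12.5% of all tested genes were.

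Partners in lipid handling moved both ways. Of 28 genes 24 were tested, with a median of 0.07. EdgeR called 1 higher and 2 lower (6 and 4 at an unadjusted p under 0.05, and 6 and 3 by DESeq2). Sorl1, a sorting receptor that binds lipoprotein lipase and apolipoprotein E, had 5.28, 4.78 and 5.63 FPKM in S100a16+/- and 3.49, 3.53 and 3.39 FPKM in WT, a rise of 0.64 ± 0.07 (edgeR adjusted p = 0.0168). Scarb1, the HDL receptor, had 17.9, 18.1 and 17.3 FPKM in S100a16+/- and 23.8, 23.5 and 23.6 FPKM in WT, and its log2 change was -0.36 ± 0.06 (edgeR adjusted p = 0.0331). Mylip, a ubiquitin ligase of lipoprotein uptake, had 10.6, 10.7 and 10.1 FPKM in S100a16+/- and 14.9, 14.7 and 13.5 FPKM in WT, with a log2 change of -0.41 ± 0.07 (edgeR adjusted p = 0.0432). All 3 called genes were even over the S100a16+/- libraries, as Fabp5 was. A call with all libraries favours such genes, because an uneven replicate 3 widens the spread, so nothing is read from this evenness. The fatty acid receptor Cd36 had 511, 540 and 122 FPKM in S100a16+/- and 129, 136 and 124 FPKM in WT, level with WT in replicate 3 as Lpl was, and was not called (edgeR adjusted p = 0.158). Apoc1, next to Apoe in the genome, had 39.3, 42.8 and 92.1 FPKM in S100a16+/- and 96.0, 100 and 95.9 FPKM in WT, low in the same 2 libraries as Apoe (-0.70 ± 0.33, edgeR adjusted p = 0.283). Without replicate 3, 9 genes were higher and 9 lower, with a median of 0.05.

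The other fatty acid binding proteins, named after their values were seen, did not share the even profile of Fabp5. Fabp7 had 81.6, 94.6 and 8.71 FPKM in S100a16+/- and 6.20, 7.77 and 6.54 FPKM in WT, and Fabp3 had 16.5, 14.9 and 1.02 FPKM in S100a16+/- and 2.01, 2.63 and 2.12 FPKM in WT. Both were far above WT in replicates 1 and 2. In replicate 3 Fabp7 was 1.27 times the WT mean and above every WT library, and Fabp3 was 0.451 of the WT mean. Fabp4, which endothelial cells and macrophages express, ran the other way, with 11.5, 11.98 and 69.8 FPKM in S100a16+/- and 30.1, 27.0 and 29.7 FPKM in WT. None of the 3 was called with all 6 libraries (edgeR adjusted p = 0.0972 for Fabp7, 0.220 for Fabp3 and 0.934 for Fabp4). Without replicate 3 the log2 change of Fabp4 turned, at -1.24 (edgeR adjusted p = 0.000175) against 0.14 with all libraries. The genes that anchor and inhibit lipoprotein lipase, also named after their values were seen, resembled Fabp4 and the endothelial markers. Gpihbp1, which holds the lipase on capillary endothelium, had 12.6, 11.6 and 87.4 FPKM in S100a16+/- and 47.2, 41.6 and 41.2 FPKM in WT. Angptl4, an inhibitor of the lipase, had 17.1, 8.05 and 101 FPKM in S100a16+/- and 43.1, 43.0 and 44.8 FPKM in WT. In replicates 1 and 2 the lipase gene was therefore above WT and the genes of its anchor and inhibitor below it, and in replicate 3 the anchor and inhibitor were above WT with Lpl level. Neither was called with all libraries (edgeR adjusted p = 0.917 for Gpihbp1 and 0.992 for Angptl4). The endothelial share of these levels was not tested.

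Among family relatives of Cd9, Lgals3 and Gpnmb, 10 of 11 genes were tested. Of these, edgeR called 2 higher and 1 lower (3 and 2 at an unadjusted p under 0.05, and 3 and 1 by DESeq2). The tetraspanins split. Cd53, found on leukocytes, had 177, 174 and 123 FPKM in S100a16+/- and 84.4, 87.2 and 81.2 FPKM in WT, a rise of 0.96 ± 0.16 (edgeR adjusted p = 0.0367). Cd81, which shares membrane partners with Cd9, had 108, 115 and 135 FPKM in S100a16+/- and 175, 187 and 172 FPKM in WT, with a log2 change of -0.52 ± 0.10 (edgeR adjusted p = 0.0449). Lgals3bp, a secreted ligand of galectin-3, had 222, 238 and 283 FPKM in S100a16+/- and 95.5, 143 and 139 FPKM in WT, a rise of 1.03 ± 0.18 (edgeR adjusted p = 0.0407). The galectin genes Lgals1 and Lgals9 were not called, Lgals1 with an edgeR adjusted p of 0.495 at a log2 change of -0.24, and Lgals9 with an edgeR adjusted p of 0.565 at 0.23. Pmel, the relative of Gpnmb, was below the FPKM minimum. The list median was -0.05 with and without replicate 3, and without it 3 genes were higher and 2 lower.

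None of the 12 transcription factors listed as regulators of these genes was called by edgeR with all 6 libraries, 3 being higher and 1 lower at an unadjusted p under 0.05 (12.4% and 9.54% of all tested genes), and DESeq2 called 1 higher and 1 lower (8.81% and 5.98%). Without replicate 3, 6 were higher and 1 lower, and the list median was 0.33, against 0.21 with all libraries. Spi1, the gene of PU.1, had 70.3, 69.0 and 48.4 FPKM in S100a16+/- and 41.6, 43.0 and 41.7 FPKM in WT. Its groups did not overlap and its log2 change was 0.63 ± 0.16 (edgeR adjusted p = 0.0913). Mitf, of the family that binds the E-boxes above and named after its values were seen, had 7.19, 7.09 and 4.75 FPKM in S100a16+/- and 5.64, 5.90 and 5.48 FPKM in WT (0.21 ± 0.18, edgeR adjusted p = 0.548).

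**Figure D5:**
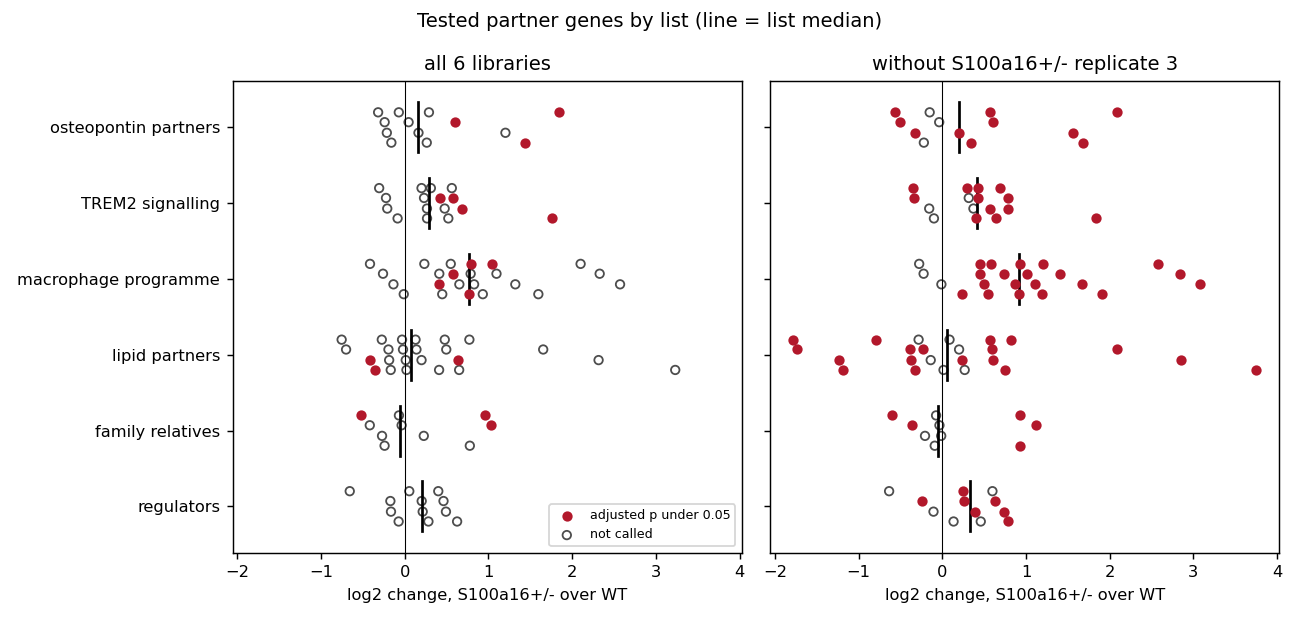
Log2 change, S100a16+/- over WT, of each tested gene in the 6 partner lists, with all 6 libraries (left) and without S100a16+/- replicate 3 (right); filled red points had an edgeR adjusted p under 0.05, open points did not, and the black line is the list median. With all libraries 15 of the 98 genes are called higher and 3 lower, and without replicate 3 the counts are 55 and 17, the macrophage programme having 20 of 23 called higher.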

How the data were processed

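Poly(A) mRNA libraries of 3 S100a16+/- and 3 WT cultures were analysed from a single table. The authors deposited, per the file headers, both a whole-number count and an FPKM for every gene in every library, with a placeholder FPKM of 0.0001 where the count is 0. The deposited FPKM values are scaled to gene length and library size. The submitters' processing notes name HISAT2 2.0.4, StringTie 1.3.4d, cutadapt 1.9, UMI-tools, edgeR and DESeq2. The sources used here do not give the genome build, the counting unit (reads or fragments) or any collapsing of molecular identifiers. GENCODE M21 held 99.5% of the gene identifiers, and gene coordinates are those of the table.

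Genes with at least 1 FPKM in at least 3 of 6 libraries were fitted with edgeR 4.0.16 (R 4.3.3), quasi-likelihood, TMM, with a single genotype term and Benjamini-Hochberg adjusted p-values over all 12766 genes. Positive log2 changes mean higher in S100a16+/-. An SE was taken as the absolute log2 change over the square root of F. Calls required an adjusted p under 0.05. The 8 genes and all lists were chosen with earlier results of these data known. Named were the 8 genes, S100a16, up to 4 called genes by p and 2 uncalled genes by mean FPKM from each partner list, leading cell type markers, and the 5 genes most like Spp1 and Trem2; other names were added after their values were seen, Ctsz among them, and some genes are not reported here. Libraries had totals of 61979103 to 76291481 counts. Counting error was not separated from the spread between libraries, and it weighs most for genes with few counts, such as those near 1 FPKM. Alternatives were other scalings, filters, DESeq2 1.42.0, limma 3.58.1 on log2(FPKM + 1), a replicate block and each library left out. The fit was tested on simulated data that held no outlying library, so that test does not cover a library like S100a16+/- replicate 3.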

Additional observations from a re-analysis of the deposited data

How the results depend on the processing

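The median log2 change of the 8 genes kept its direction under every alternative, at 1.23 to 1.73, as did the median relative to macrophage markers, at 0.48 to 1.25. The genes were chosen with this contrast known and every alternative used the same libraries, so nothing is read from the kept direction. Apoe, against the median, had a negative log2 change throughout, at -0.24 to -0.99. Of the single values, Fabp5 moved by more than the spread between replicates under 4 settings, to 1.18 with library totals alone and to 1.16, 1.18 and 1.08 with limma at pseudocounts of 1, 0.1 and 5. The other scalings and the stricter filter kept the counts of calls within 1.5 times. With no filter, 162 genes were higher and 81 lower (6 and 0 of the partner genes, 43 and 9 at an unadjusted edgeR p under 0.05), and with DESeq2 1125 and 763 (36 and 6 of the partners). Leaving out 1 library gave 22 to 2022 higher and 10 to 2093 lower, and 0 to 55 and 0 to 17 of the partners. The highest counts came without S100a16+/- replicate 3. Of the 98 partners 7 turned direction without that library, none of them called with all 6, and 4 of the 7, Fabp4, Timp2 and Bhlhe40 among them, were called without it; Tgm2, Lgals9 and Apoc2 were not. Leaving out 1 library at a time moved Tgm2 between -0.0372 and 0.436, and Lgals9 between -0.0341 and 0.344. The cause was not tested. Of all calls 63.9% were higher in the main analysis, 52.8% with library totals alone, and 51.3%, 52.7% and 48.7% with limma at pseudocounts of 1, 0.1 and 5.

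With the replicate number as a block, edgeR called 0 genes higher and 0 lower, and 0 of the partners each way, while 2207 genes, 33 higher and 6 lower partners among them, had an unadjusted p under 0.05. The median log2 change of the 8 genes was 1.34 in that fit. Deviations of same-numbered libraries from their group mean correlated at -0.138, 0.0376 and -0.0500 over genes. With 3 libraries per group and S100a16+/- replicate 3 apart, these values cannot settle whether the numbers pair the samples.

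Each group has 3 libraries, and 1 of the S100a16+/- libraries stands apart. Summed marker levels measure cell content in bulk RNA only coarsely, and a gene held by several cell types cannot be assigned to 1 of them.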
